A study of Mus musculus with 4 samples.

Results

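Among fibroblast-type cells of the mouse digit, 1137 cells were selected in which the summed unique molecular identifier (UMI) count of C4b, Gdf10 and Cyp2f2 was at least 3 and exceeded the sums of 6 other marker trios. They were found among 11674 gated fibroblast-type cells and 39266 cells in all, and are called C4b/Gdf10 cells below and rule cells in the plots. The gate asked for no UMI of Ptprc (immune cells) or Cdh5 (endothelium), at most 2 UMIs of Rgs5 (mural cells) and at least 2 UMIs of Pdgfra and Dcn (fibroblasts). The competing trios were Pi16, Dpp4 and Pcolce2 for adventitial fibroblasts, Prss35, Spock3 and Crabp1, Chad, Omd and Scube1, Scx, Tnmd and Thbs4 for tendon, Ibsp, Sp7 and Alpl for bone, and Hapln1, Prg4 and Inhba for joint. Because measured counts of these genes chose the cells, their high levels below are a description and were not tested.

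Single-cell libraries had been made from digits of wild-type FVB/NJ mice aged 8 weeks, with males and females pooled. One library came from unamputated digits (labelled homeostatic) and the other 3 from fibrosing digits at 12, 17 and 28 days post amputation (dpa) through the middle of the second phalanx (P2), a level from which the mouse digit does not regrow. Tissue had been digested with trypsin and collagenase, and live cells had been sorted by exclusion of propidium iodide. Each group is 1 library, so no difference between groups has a replicate check and no p-value was computed. Pooled animals, surgery, digestion and library therefore cannot be told apart, and all intervals below are 95% intervals that cover counting error only. Where 4 values follow each other, they are for unamputated, 12, 17 and 28 dpa.

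Complement is a cascade of serum proteases and opsonins that marks surfaces for clearance. C4b encodes complement component C4, which is cleaved by C1s and then forms the C3 convertase with C2. Gdf10 (BMP3B) encodes a secreted ligand of the TGF-beta superfamily, and Cyp2f2 encodes a cytochrome P450 best known from airway club cells, where it oxidises xenobiotics. Fibroblasts of connective tissue produce complement components locally, besides collagen and elastic fibres.

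The libraries held 197140774, 92313847, 95988993 and 106899985 UMIs, of which 5441692, 537062, 6067058 and 2423983 lay in C4b/Gdf10 cells. The median C4b/Gdf10 cell had 17207, 11681, 12150 and 7227 UMIs, so depth differed between groups, and 20 CPM (counts scaled to 1000000 per group of summed cells) corresponded to 10.7 UMIs at 12 dpa but to 109 in the unamputated library. The gate had already asked for the fibroblast genes Pdgfra and Dcn; outside it, Col1a1 was at 7904 to 16736 CPM and Col3a1 at 18414 to 29757 CPM. The 10 fibroblast markers, gate genes included, summed to between 54149 and 77644 CPM, against 39542 to 62236 CPM in the other gated cells, with none at 0. Of other classes, 8 macrophage markers summed to 78.1, 26.1, 69.1 and 431 CPM and 10 keratinocyte markers to 609, 156, 770 and 1181 CPM. Osteoblast markers (6 genes) summed to 485, 160, 314 and 360 CPM against 1662, 375, 3270 and 1789 CPM in the other gated cells, and 8 Schwann and glial markers to 289, 317, 340 and 337 CPM against 191, 177, 308 and 367. The 5 melanocyte markers summed to more here in each library, at 365, 121, 294 and 269 CPM against 95.4, 61.7, 143 and 97.1. Of these 5, Tyrp1 had 0 UMIs here in every library and Dct in all but that of 17 dpa. The part of these classes in the results was not tested. The 12 dpa library stood apart in sex-linked transcripts, which go against pooling of sexes: Xist was at 0, 186, 0.165 and 0 CPM and Y-linked genes at 332, 1.86, 250 and 248 CPM. Sex can therefore not be told apart from time at 12 dpa. Pairs of libraries shared 19 to 87 cell barcodes, of which 0 were among the C4b/Gdf10 cells of both.

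C4b/Gdf10 cells were least frequent at 12 dpa and most frequent at 17 dpa. They numbered 305 of 2368 gated cells in the unamputated library, or 12.9% (exact binomial interval 11.6 to 14.3). At 12 dpa there were 41 of 2226, or 1.84% (1.32 to 2.49). At 17 dpa there were 485 of 2929, or 16.6% (15.2 to 18.0), and at 28 dpa 306 of 4151, or 7.37% (6.59 to 8.21). None of these counting intervals overlapped. Depth can set such shares, so cells were also thinned to 5000 UMIs, which 10236, 5537, 6707 and 7982 of all cells reached. The shares were then 8.28%, 0.847%, 12.9% and 6.10%, in the same order. With Gdf10 left out of the sum they were 3.34%, 0.0898%, 2.39% and 2.22%, and the unamputated share was the highest. The Pi16, Dpp4 and Pcolce2 cells, chosen by the same kind of rule, numbered 279, 178, 662 and 1204, and the Prss35, Spock3 and Crabp1 cells 171, 387, 49 and 29.

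**Figure D1:**
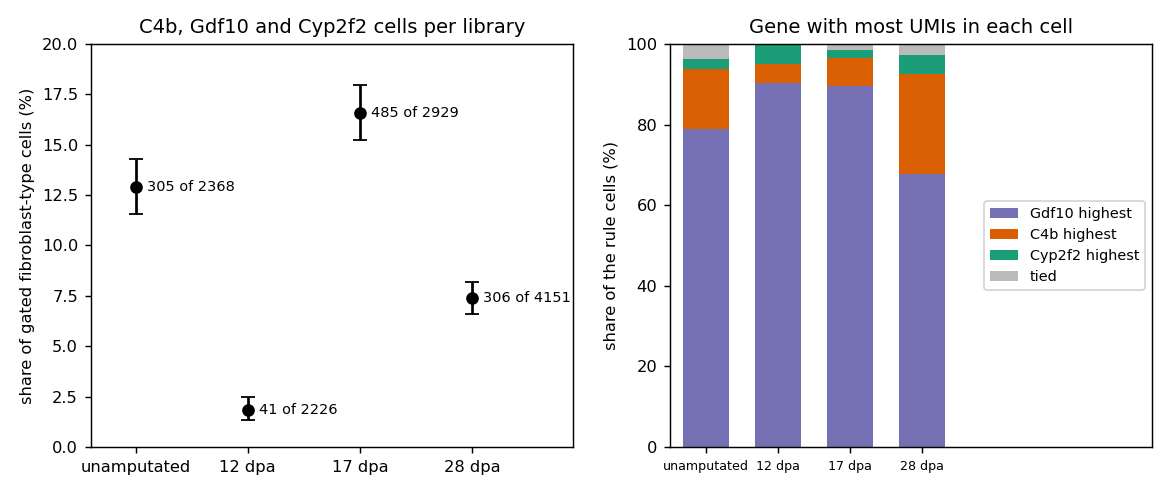
Left, share of gated fibroblast-type cells (%) that were C4b/Gdf10 cells in each library, with exact 95% binomial intervals for counting error and the cell numbers printed. Right, share of those cells (%) whose highest UMI count among the rule genes was that of Gdf10, C4b or Cyp2f2. The 12 dpa share of 1.84% lies far below the others, and C4b led in 24.8% of the cells at 28 dpa.

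Gdf10 was the rule gene that most cells carried. Its level, as summed UMIs, was 541, 421, 790 and 682 CPM, against 49.1, 15.2, 103 and 63.6 CPM in the other gated cells. C4b was at 135, 50.3, 133 and 344 CPM, and Cyp2f2 at 42.3, 18.6, 46.5 and 112 CPM. Both were highest at 28 dpa and lowest at 12 dpa, whereas Gdf10 was highest at 17 dpa. Gdf10 lies at chr14:33923587-33937983, C4b at chr17:34728380-34743882 and Cyp2f2 at chr7:27119909-27133660 (mm10, GENCODE M21 genes). C4b has a near-identical neighbour, C4a, so its count is uncertain where reads could match both.

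At least 1 Gdf10 UMI was seen in 97.7%, 100%, 99.0% and 90.2% of the C4b/Gdf10 cells, C4b in 45.9%, 36.6%, 39.6% and 55.2%, and Cyp2f2 in 21.6%, 9.76%, 19.6% and 32.0%. After thinning each cell to 2000 UMIs, C4b was seen in 20%, 14.6%, 18.6% and 37.0% and Cyp2f2 in 6.23%, 0%, 7.42% and 17.7%, where the 0 of 41 cells at 12 dpa allows up to 7.32% (3 cells) with a UMI at the thinned depth. Immune cells had a C4b UMI in 0.703%, 0.467%, 2.42% and 3.75% of cells and a Gdf10 UMI in 0.248%, 0.583%, 1.04% and 1.65%. Their medians were 8137, 6965, 6492 and 6031 UMIs. Whether these UMIs came from the immune cells themselves or from background was not tested. In many C4b/Gdf10 cells only part of the trio was seen: all 3 genes in 43, 2, 48 and 59 cells and Gdf10 alone in 142, 24, 248 and 108. At these depths a gene without a UMI may still be expressed.

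The threshold cut through a continuous range. The rule sum had medians of 10, 5, 10 and 8 UMIs and reached 53, 22, 52 and 49. Just inside, 17, 9, 33 and 29 cells had a sum of exactly 3, and 29, 12, 50 and 46 led the next trio by 1 UMI. Just outside, 24, 2, 23 and 27 gated cells had a sum of 2 above all other trios, and 33, 5, 47 and 28 reached 3 but tied with another trio. A further 328, 72, 505 and 545 gated cells had a sum of at least 3 that lay below another trio.

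What the cells shared beyond the rule genes was read from the other gated cells of the same library, as a description, since the same cells chose the rule genes. Of 5457 genes that reached 20 CPM in the C4b/Gdf10 cells of all 4 libraries, 42 (0.77%) were over 2-fold higher there in every library, among them the rule genes Gdf10 and C4b, which had the highest smallest ratios. With cells thinned to 5000 UMIs 35 genes passed, of which 25 were among the 42; of the 20 with the highest smallest ratios, Serpina3n, Maob, Steap4 and C1s2 no longer did. Log2 ratios here and below are of CPM + 1.

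Of the genes that the rule did not use, the highest smallest ratio was that of Cygb (the oxygen-binding globin cytoglobin), at 420, 441, 619 and 598 CPM against 73.1, 67.4, 138 and 111 in the other gated cells. Cxcl12, a chemokine that retains CXCR4-bearing leukocytes and progenitors, was at 855, 395, 681 and 989 CPM against 172, 114, 196 and 140. In both genes every library of C4b/Gdf10 cells lay above every library of other gated cells. Of the complement genes, Cfb (factor B of the alternative pathway) was at 74.8, 65.2, 66.3 and 89.1 CPM against 17.3, 19.1, 19.7 and 22.3. C2 was at 73.3, 95, 117 and 82.1 CPM and C1s1, a protease that cleaves C4 and C2, at 199, 205, 269 and 257 CPM. C1s2, a close copy of C1s1 with which it could share reads, had log2 ratios from 1.34 to 1.55.

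Ace, which converts angiotensin I, was at 120, 33.5, 175 and 162 CPM against 20.7, 9.57, 63.6 and 37.3 in the other gated cells. Entpd2, which hydrolyses extracellular ATP, was at 135, 54.0, 175 and 208 CPM. Icam1, the leukocyte adhesion ligand, was at 199, 59.6, 154 and 472 CPM, and the serpin Serpina3n at 175, 149, 178 and 299 CPM. In the matrix, Eln (elastin) was at 776, 570, 774 and 300 CPM against 118, 136, 292 and 64.8, and Mgp, an inhibitor of calcification, at 2884, 3791, 3087 and 3365 CPM against 727, 1138, 1220 and 702.

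**Figure D2:**
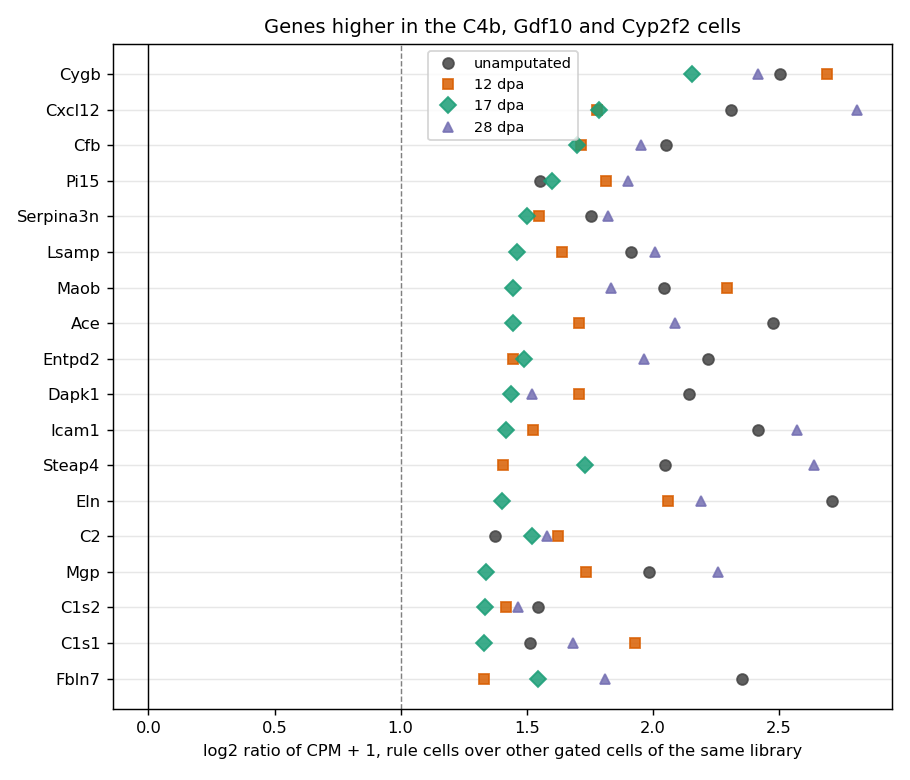
Log2 ratio of CPM + 1 between C4b/Gdf10 cells and the other gated cells of the same library (x axis) for the genes with the highest smallest ratio that were not rule genes (y axis). Each symbol is 1 library and the dashed line marks 2-fold. Cygb lies at or above 2.16 in each library, and the 17 dpa values are the lowest for many of the genes.

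By list, and counting C4b, which the rule used, 8 of 14, 7 of 12, 8 of 13 and 9 of 16 measured complement genes were over 2-fold higher than in the other gated cells of their library, where 3.7%, 3.62%, 1.51% and 4.05% of all genes were. Over 2-fold lower were 1, 2, 2 and 2. Members that reached 20 CPM only in the higher group had to differ; of those at 20 CPM in both, 4 of 9, 3 of 8, 5 of 10 and 8 of 14 were higher, against 2.42%, 2.23%, 0.951% and 2.89% of all genes counted so. For the detoxification list, which holds Cyp2f2, the counts were 8 of 22, 5 of 16, 6 of 22 and 7 of 22, but only 2 of 14, 3 of 13, 1 of 14 and 1 of 15 with 20 CPM in both groups. For chemokines, cytokines and their receptors they were 4 of 17, 7 of 16, 4 of 19 and 10 of 17, and with 20 CPM in both groups 2 of 13, 4 of 13, 3 of 14 and 8 of 14. The immediate early and heat shock list, which responds to cell handling, was higher in the same cells in 8 of 26, 13 of 25, 0 of 26 and 17 of 27, and its part in the chemokine counts was not tested. None of the measured contractile genes, such as Acta2 and Tagln, was over 2-fold higher, and 6 of 9, 7 of 9, 5 of 9 and 4 of 10 were over 2-fold lower, where 3.27%, 4.61%, 2.48% and 3.41% of all genes were. With 20 CPM in both groups 6 of 9, 7 of 9, 4 of 8 and 3 of 9 were lower, against 1.52%, 1.76%, 1.2% and 1.47% of all genes. Acta2, the smooth muscle actin of myofibroblasts, was at 31.2, 59.6, 21.6 and 66.8 CPM against 275, 563, 127 and 165.

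Of 5893 genes that reached 20 CPM in the other gated cells of all 4 libraries, 59 (1%) were over 2-fold lower in C4b/Gdf10 cells throughout. The bone matrix gene Ibsp, a rule gene of the bone trio, and Spp1 led them. The 59 passed on their level in the other gated cells alone, and include the proliferation genes Mki67 and Top2a. Mki67 was at 9.74, 9.31, 4.12 and 4.54 CPM against 78.6, 42.8, 52.5 and 42.5, and Top2a at 10.7, 3.72, 5.77 and 2.48 CPM against 78.8, 57.2, 45.5 and 49.6. Scx and Thbs4, rule genes of the tendon trio, were also among the 59, as were Krt14, Krt5 and Krt17 of keratinocytes. The 10 keratinocyte markers summed to 609, 156, 770 and 1181 CPM in C4b/Gdf10 cells against 1453, 650, 1700 and 4243 CPM in the other gated cells, and their part in the lower genes was not tested.

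Against the Pi16, Dpp4 and Pcolce2 cells, 35 of 5457 genes (0.641%) were over 2-fold higher in all 4 libraries and 29 of 5727 (0.506%) over 2-fold lower. The higher genes include Gdf10 and C4b and the lower ones Pi16, Dpp4 and Pcolce2, which chose the cells. Cygb, Cxcl12, Cfb, C2, C1s1, Ace and Eln were not among the 35: Cygb was at 177, 251, 263.5 and 188 CPM in the Pi16 cells, and Eln at 315, 738, 782 and 138 CPM. The interstitial collagenase Mmp13 had the highest smallest ratio, with log2 ratios of 5.11, 4.49, 3.02 and 2.94. Mgp had ratios of 2.92, 1.87, 2.54 and 4.22, the transcriptional cofactor Zfpm2 2.11, 2.58, 2.15 and 3.21, and the lipid carrier Apoe 1.61, 1.55, 1.49 and 2.19. On the other side stood the proprotein convertase Pcsk6, at -2.62, -5.16, -2.91 and -3.00. Pcsk6 had 0 UMIs in the C4b/Gdf10 cells of 12 dpa, against 34.7 CPM in the Pi16 cells. The size of its -5.16 was therefore set by the added 1 CPM, and a limit of 3 UMIs allows up to 5.59 CPM. The ligand Wnt2 was at -4.15, -2.30, -2.54 and -3.31. Cd55, which limits complement on cell surfaces, was at -2.15, -2.30, -2.35 and -2.17. Mmp13 set these cells apart from the Pi16 cells but not from all other gated cells, in which it was at 646, 187, 794 and 264 CPM against 175, 125, 114 and 114.

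The cells were not uniform. Gdf10 had the most UMIs of the trio in 241, 37, 434 and 207 cells, C4b in 45, 2, 34 and 76 and Cyp2f2 in 8, 2, 10 and 15, with 11, 0, 7 and 8 tied. C4b thus led in 14.8%, 4.88%, 7.01% and 24.8%. Within libraries the counts of C4b and Gdf10 had correlations across cells of -0.10, -0.24, -0.004 and -0.52, on which the minimum set on their sum bears.

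C4b-led and Gdf10-led cells differed in further genes beyond those that split them. In the unamputated, 17 and 28 dpa libraries, each with at least 30 cells on both sides, 8 of 2602 genes (0.307%) were over 2-fold higher in C4b-led cells throughout and 15 of 2973 (0.505%) over 2-fold lower. The 12 dpa library, with 2 C4b-led cells, was not compared. These counts include C4b and Gdf10, which the split fixed, and Cyp2f2 and Pcolce2, which the rule used.

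C3, the component on which all complement pathways converge, was at 537 CPM in C4b-led cells against 56.7 in Gdf10-led cells of the unamputated library. It was at 389 against 73.7 CPM at 17 dpa and at 816 against 171 CPM at 28 dpa. Cfb followed with log2 ratios of 1.57, 1.52 and 1.31 in those 3 libraries. Apoe was at 1463 against 588, 1697 against 724 and 2750 against 819 CPM, and Efemp1, a fibulin of the extracellular matrix, at log2 ratios of 2.17, 1.73 and 2.03.

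Of the 15 genes lower in C4b-led cells, Mmp13 had the largest difference in the unamputated and 17 dpa libraries, though not at 28 dpa, at 210 CPM in Gdf10-led cells against 14.9 in C4b-led cells of the unamputated library, 125 against 16.5 at 17 dpa and 160 against 27.5 at 28 dpa. Ratios of C4b-led to Gdf10-led cells were -1.97, -1.66 and -2.14 for Tnn (tenascin-N, also called tenascin-W) and -1.58, -1.60 and -1.54 for Col12a1, a fibril-associated collagen. For Fmod, a leucine-rich proteoglycan that binds collagen fibrils, they were -1.03, -1.28 and -3.15, and for the TGF-beta binding protein family member Ltbp2 -2.35, -1.16 and -2.76. Zfpm2, Epha3, Cemip2, Smoc2, Cdh11, Pde3a, Tns3, Sparcl1 and Edil3 were the others, beside Gdf10.

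The few Cyp2f2-led cells differed again. Fmod had 0 UMIs in those of the unamputated, 17 and 28 dpa libraries, against 216.8, 241 and 238 CPM in Gdf10-led cells. With a limit of 3 UMIs, the 0s allow up to 18.6, 29.0 and 30.5 CPM. The 2 cells of the 12 dpa library went the other way, with 18 UMIs or 884 CPM (524 to 1397) against 357 CPM. Igf1, the growth factor, was at 3437, 1915, 1960 and 1178 CPM against 1546, 433, 852 and 662, and Mgp at 155, 884, 811 and 660 CPM against 2903, 4154, 3281 and 4679. Igf1 was the higher and Mgp the lower in each library. With 2 to 15 cells in a library, these values rest on very few cells.

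**Figure D3:**
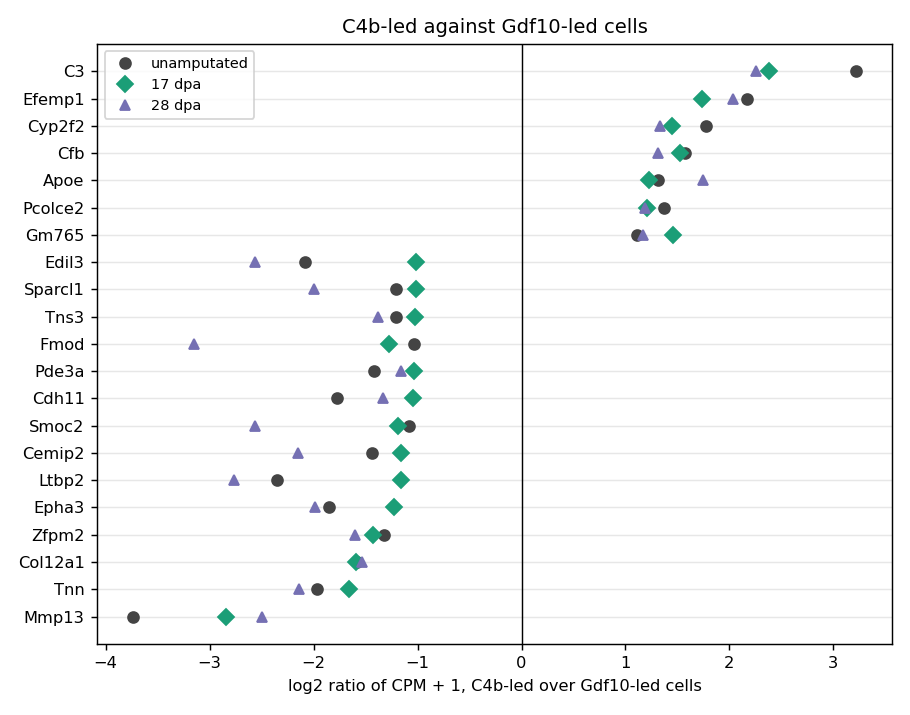
Log2 ratio of CPM + 1 between C4b-led and Gdf10-led cells of the same library (x axis) for genes past 2-fold the same way in all 3 libraries compared (y axis), leaving out C4b and Gdf10. Symbols are the unamputated, 17 and 28 dpa libraries. C3 lies furthest to the right, at 2.25 to 3.22, and Mmp13 furthest to the left in the unamputated library, at -3.73.

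At 28 dpa against the unamputated digit, 7 of 17 chemokine and cytokine genes (with 1 lower) and 10 of 27 immediate early genes were over 2-fold higher in the C4b/Gdf10 cells, and 7 of 10 imprinted genes and 6 of 24 collagen genes were over 2-fold lower. Of 7103 genes with at least 20 CPM in the higher library, 160 (2.25%) were over 2-fold higher and 382 (5.38%) over 2-fold lower. Over all of them the median log2 ratio was -0.20. Scaling by the median of ratios in place of the total moved the centre by -0.16 and gave 254 higher and 235 lower. The balance of higher to lower thus depended on the scaling, and values below should be read relative to that median. In the other gated cells, 232 of 7221 genes (3.21%) were over 2-fold higher and 367 (5.08%) lower. With 20 CPM in both libraries the 4 list counts were 5 of 14, 9 of 25, 5 of 8 and 3 of 20, against 1.7% of all genes higher and 3.32% lower. In such summed values, fewer transcripts of a gene and more transcripts of other genes cannot be told apart.

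Of the 17 measured chemokine and cytokine genes, 7 were over 2-fold higher and 1 lower, and in the other gated cells 6 of 17 were higher and 2 lower. The median log2 ratio was 0.90 against 0.16 there. Il6, the acute phase cytokine, was at 19.3, 13.0, 31.8 and 123 CPM, a log2 ratio at 28 dpa of 2.61 (counting interval 2.35 to 3.01) against 0.89 in the other gated cells. It was seen in 33, 3, 53 and 73 cells, and the highest cell at 28 dpa held 23 of its UMIs. In immune cells of the same libraries Il6 was at 9.34, 0.916, 8.03 and 13.8 CPM.

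Cxcl1, which attracts neutrophils, was at 243, 240, 398 and 1103 CPM, with a ratio at 28 dpa of 2.18 (2.09 to 2.28) against 1.42 in the other gated cells, and at 112 CPM in immune cells of that library. Its relative Cxcl2 was at 42.6, 108, 46.0 and 229 CPM (ratio 2.40, 2.20 to 2.65), but immune cells held far more, between 667 and 1061 CPM. The 28 dpa library was the highest of the 4 for each of Il6, Cxcl1 and Cxcl2.

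The monocyte attractant Ccl2 was at 34.7, 44.7, 78.1 and 169 CPM (ratio 2.25, 2.03 to 2.54). Ccl11, an attractant of eosinophils, was at 31.4, 35.4, 84.1 and 134 CPM (2.05, 1.82 to 2.36), while immune cells of the 28 dpa library had 2.52 CPM. Ccl8 was at 19.8, 22.3, 77.3 and 123 CPM, with 34.8% of its 28 dpa UMIs in 1 cell. All 3 were lowest in the unamputated library. Ccl7 was also past 2-fold, at 51.8, 220, 75.0 and 132 CPM. The single lower gene, Cxcl5, was at 86.0, 63.3, 22.3 and 16.1 CPM. The 8 macrophage markers moved the same way in these cells, from 78.1 to 431 CPM, and from 35.7 to 328 CPM in the other gated cells; their part in the result was not tested.

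Promoter sequence was available for 4 of the 7 higher genes (Ccl8, Cxcl1, Cxcl2 and Il6), and 3 of these held the letters GGGANNTTCC, a form of the kappa B motif, on either strand within 250 bases before to 50 bases after the start. The motif occurred in 482 of 32851 mouse promoters (1.47%). In the whole list 21 of 29 genes had a promoter entry and 5 held it: Csf1, Cxcl1, Cxcl10, Cxcl2 and Il6. The 100 bases before the start are shown for the 3 higher genes that held the motif, in capitals (RefSeq, GRCm38.p6, plus strand). Ccl8, with a ratio of 2.58 at 28 dpa, held no match and is not shown. A match is a description and not evidence of binding.
Cxcl1, chr5:90891145-90891244: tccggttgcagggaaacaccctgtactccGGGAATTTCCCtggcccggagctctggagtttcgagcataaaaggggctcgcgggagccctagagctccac
Cxcl2, chr5:90903799-90903898: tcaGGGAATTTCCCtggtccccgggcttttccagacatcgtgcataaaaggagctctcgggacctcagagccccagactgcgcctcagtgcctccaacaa
Il6, chr5:30013014-30013113: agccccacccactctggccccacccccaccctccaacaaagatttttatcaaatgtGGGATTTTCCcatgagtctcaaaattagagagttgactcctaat
The motif started 71 bases before the start in Cxcl1, 97 in Cxcl2 and 44 in Il6, and in the first 2 genes matches on both strands overlapped.

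Immediate early and heat shock genes, which respond within minutes to stimulation, digestion or stress, were past 2-fold higher in 10 of 27 measured members and lower in 0. Of all genes 2.25% were higher and 5.38% lower at 28 dpa. The median of the list was 0.81 against 0.33 in the other gated cells, in which 3 of 26 were higher. Zfp36, whose product degrades cytokine transcripts, was at 154, 171, 378 and 806 CPM (ratio 2.38, 2.27 to 2.51). Fos was at 1285, 654, 1669 and 2899 CPM, Atf3 at 162, 46.5, 208 and 555 CPM and Ier3 at 207, 296, 246 and 709 CPM. The 28 dpa library was the highest for each, and the part that cell handling had in this was not tested. Irf1, an interferon-induced factor, was at 138, 70.8, 172 and 418 CPM and was the 1 gene past 2-fold among 10 of the interferon and antigen presentation list.

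Of 13 complement genes at 20 CPM in both libraries, 4 were over 2-fold higher at 28 dpa and none lower, where 1.7% and 3.32% of all such genes were; 1 of the 4 is C4b. With 20 CPM in the higher library alone, 6 of 16 complement genes were higher and none lower. Counted that way in the other gated cells, 6 of 15 were higher and 1 lower. C3 was at 119, 91.2, 99.2 and 371 CPM (ratio 1.63, 1.49 to 1.79) and the C1 inhibitor Serping1 at 593, 765, 1097 and 1348 CPM (1.18, 1.11 to 1.26). C7, of the membrane attack complex, was at 23.5, 0, 44.8 and 77.1 CPM. C4b itself had a ratio of 1.35 (1.21 to 1.5), but the rule used it. The macrophage genes C1qa (4.23, 0, 6.26 and 50.7 CPM) and C1qb (3.12, 1.86, 4.12 and 26.0 CPM) were measured only through the 28 dpa library. Immune cells held C1qa at 625 to 2030 CPM, and 36 of the C1qa UMIs at 28 dpa lay in 1 cell. C3, by contrast, was at 7.11 CPM in immune cells of the 28 dpa library.

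In the detoxification list 7 of 22 genes were past 2-fold higher at 28 dpa and none lower, where 2.25% and 5.38% of all genes were. In the other gated cells 7 of 16 were higher and 1 lower. The median was 0.74 against 0.81 there. The metallothionein Mt2 was at 65.4, 78.2, 115 and 297 CPM (ratio 2.16 against 0.60), Mt1 at 393, 464, 596 and 1121 CPM and the secreted peroxidase Gpx3 at 95.9, 89.4, 181 and 305 CPM. The glutathione transferase Gstm1 was at 73.3, 80.1, 121 and 171 CPM, and Mgst1, Ephx1 and the rule gene Cyp2f2 completed the count. The unamputated library was the lowest for Mt1, Mt2, Gstm1, Mgst1 and Ephx1, and 12 dpa was the lowest for Gpx3 and Cyp2f2.

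Gsn, encoding the actin-severing protein gelsolin, was at 1677, 920, 3808 and 7489 CPM (ratio 2.16, 2.12 to 2.19, against 2.51 in the other gated cells), and the methyltransferase Inmt at 10.7, 41, 20.4 and 63.1 CPM. Of all genes 2.25% were higher and 5.38% lower at 28 dpa. In the lipid list 3 of 11 were higher and none lower, among them Apod at 970, 460, 1207 and 2728 CPM. Of the 11 measured adventitial genes 4 were higher and none lower, with a median of 0.67 against 1.25 in the other gated cells. There 10 of 15 were higher and 1 lower. Ly6c1 was at 193, 179, 389 and 665 CPM and Ly6a at 319, 477, 546 and 831 CPM. The hyaluronan synthase Has1 was at 106, 72.6, 143 and 249 CPM, beside Pcolce2, a rule gene of the adventitial trio. Krt2, an epidermal keratin, had the highest ratio of the named genes at 28 dpa (6.8, 0, 23.4 and 56.9 CPM), with 45.7% of its 28 dpa UMIs in 1 cell. The summed level of the 10 keratinocyte markers went from 609 to 1181 CPM here and from 1453 to 4243 CPM in the other gated cells, and their part was not tested.

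**Figure D4:**
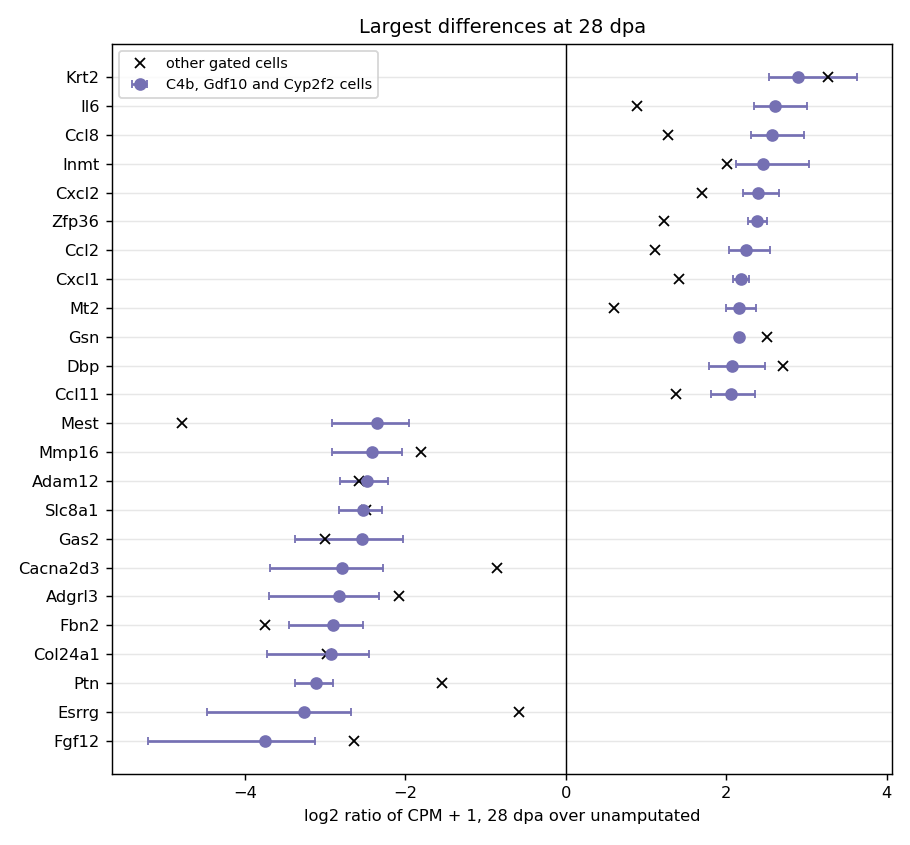
Log2 ratio of CPM + 1 at 28 dpa over unamputated (x axis) for the 12 highest and 12 lowest genes of at least 50 CPM in C4b/Gdf10 cells (circles, with 95% counting intervals) and for the same genes in the other gated cells (crosses). Il6, Ccl8 and Mt2 are further from 0 in the C4b/Gdf10 cells, and Mest is further from 0 in the other gated cells.

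At 28 dpa none of 24 measured collagen genes had a ratio above 0, 6 were over 2-fold lower and the median was -0.77, against -1.12 in the other gated cells. Col1a1, the main fibrillar collagen chain, was at 14894, 16736, 15302 and 7904 CPM, a ratio of -0.91 that does not reach 2-fold. Col11a1 was at 260, 462, 178 and 80.4 CPM and Col24a1 at 78.7, 61.4, 30 and 9.49 CPM. Of 18 elastic fibre genes 5 were lower and none higher, and 4 of 17 were lower with 20 CPM in both libraries. Counted in these ways, 5.38% and 3.32% of all genes were lower. Eln was at 300 CPM against 776 unamputated and Mfap4 at 370, 728, 287 and 113 CPM. The fetal fibrillin Fbn2 was at 139, 108, 31.5 and 17.7 CPM (ratio -2.90, -3.44 to -2.52). Postn, a matricellular protein of wounds, was at 3562, 4914, 2819 and 1498 CPM. Adam12, a membrane metalloprotease, was at 246, 158, 112 and 43.3 CPM. Dcn, a gate gene, went the other way, at 6303, 4979, 11455 and 12694 CPM.

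Of the growth factor list 3 of 23 with 20 CPM in both libraries were over 2-fold lower at 28 dpa and none higher, where 3.32% of all genes were lower. Ptn (pleiotrophin), a heparin-binding growth factor, was at 568, 158, 176 and 64.8 CPM (ratio -3.11, -3.37 to -2.90), against 245, 223, 139 and 83.6 CPM in the other gated cells, a ratio of -1.54. Unamputated cells held the most Ptn and those of 28 dpa the least. In the insulin-like growth factor list 3 of 8 such genes were lower and 1 higher: Igf1 was at 1843, 479, 878 and 849 CPM (ratio -1.12, -1.19 to -1.05), Igfbp3, under 20 CPM at 28 dpa, at 62.1, 39.1, 49.0 and 17.7 CPM, while Igfbp6 was at 548, 1086, 1243 and 1253 CPM. Igf1 was highest and Igfbp6 lowest before amputation.

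Of 10 measured imprinted genes, a class known for roles in fetal growth, 7 were over 2-fold lower and none higher, with a median of -1.24 against -1.67 in the other gated cells. Mest was at 90.4, 156, 25.9 and 16.9 CPM (ratio -2.35 against -4.78), Peg3 at 113, 74.5, 67.1 and 24.8 CPM, and Cdkn1c, a cell cycle inhibitor, at 268, 143, 162 and 100 CPM. The 28 dpa library was the lowest for each. Fgf12 (62.3, 5.59, 13.2 and 3.71 CPM) had the lowest ratio of the named genes, at -3.75, with 33% of its unamputated UMIs in 1 cell. Esrrg, Cacna2d3, Adgrl3, Gas2, Slc8a1 and Mmp16 completed the 12 lowest, with ratios between -3.26 and -2.41.

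**Figure D5:**
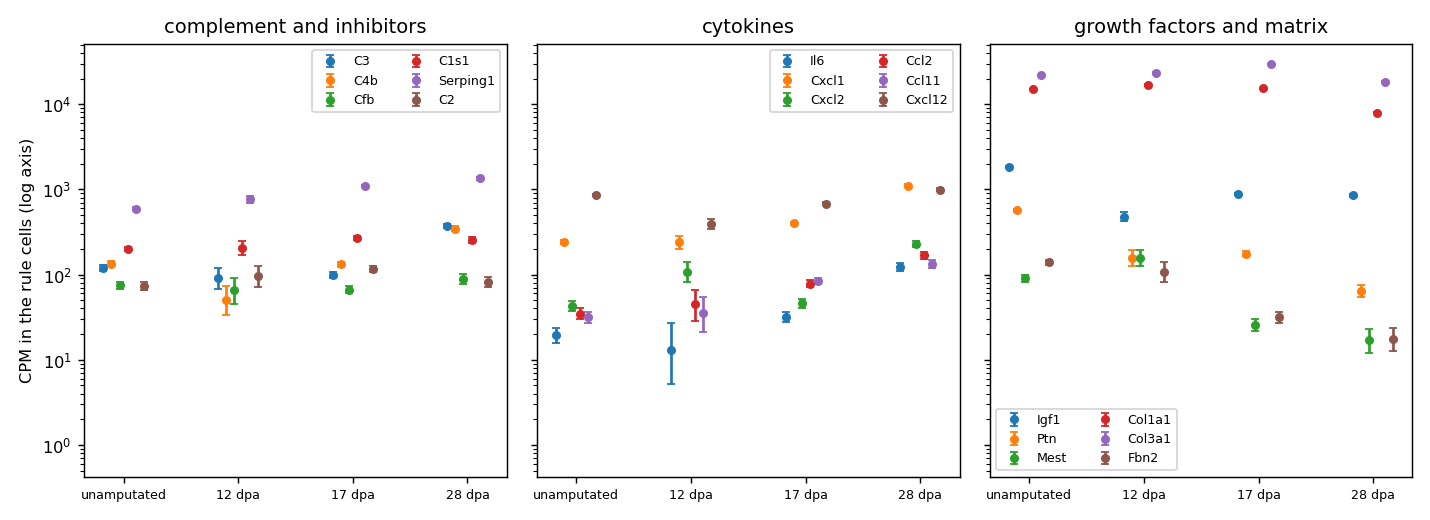
Level in C4b/Gdf10 cells (CPM, log axis) in the 4 libraries for complement genes and inhibitors, cytokines, and growth factors and matrix genes, with exact 95% Poisson intervals for counting error. C3 and the cytokines are highest at 28 dpa, except that Cxcl12 differs little between unamputated and 28 dpa, and Ptn, Mest and Fbn2 are lowest there.

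Fewer genes passed 2-fold at 17 dpa than at 12 or 28 dpa. Of 7053 genes, 42 (0.595%) were over 2-fold higher and 171 (2.42%) lower, with a median ratio of -0.09. In the other gated cells 82 (1.16%) were higher and 80 (1.13%) lower. The Wnt antagonist Sfrp4 had the highest ratio of genes of at least 50 CPM, 2.28 (2.10 to 2.52), at 41.2, 87.5, 204 and 140 CPM. Spp1 followed, at 27.6, 7.45, 132 and 79.2 CPM, but 52.4% of its 17 dpa UMIs lay in 1 cell, and the other gated cells held it at 1595, 113, 3205 and 2736 CPM. Chrdl1, an antagonist of bone morphogenetic proteins (BMPs), was at 28.7, 70.8, 79.9 and 26.4 CPM, with a ratio of 1.45 against 0.25 in the other gated cells.

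Ccl8, Ccl11, Zfp36 and Gsn were already past 2-fold at 17 dpa, with ratios of 1.91, 1.39, 1.29 and 1.18. With cells thinned to 5000 UMIs, Zfp36 (0.86) and Gsn (0.97) no longer passed, nor did Gsn (0.74) with Gdf10 left out of the sum. Dpep1, a membrane dipeptidase, was at 31.8, 57.7, 91.6 and 80.5 CPM, and Myoc at 26.8, 18.6, 69.6 and 95.7 CPM. Myoc had a larger ratio in the other gated cells, 3.85 against 1.34, from a level of 3.04 CPM there, and was at 0.84 in Gdf10-led cells only. Fam124a, Sema3e and Lamb2 made up the rest of the 12 highest.

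The lowest ratio was that of Kctd16, an auxiliary subunit of GABA-B receptors, at 131, 3.72, 16.6 and 33.8 CPM (ratio -2.91 against 0.45 in the other gated cells), with 26.1% of its unamputated UMIs in 1 cell. Nlgn1 had a ratio of -2.67 against -0.33, and Cacna2d3 and Grin2a had ratios of -2.30 and -2.06. Chil1, a chitinase-like protein, had a ratio of -2.75 against -0.15. Fbn2, Fgf12, Gas2, Adgrl3, Esrrg and Prdm6 were lower too, as was Cxcl5, at -1.90 here and -2.07 in the other gated cells. With Gdf10 left out of the sum, Gas2 (-0.96) and Cxcl5 (-0.83) were within 2-fold. With 20 CPM in both libraries, 4 of 23 collagen genes and 2 of 22 growth factor genes were lower and none higher, where 1.31% of all genes were lower. No complement gene of 14 passed 2-fold, where 0.595% of all genes were higher and 2.42% lower. The median of that list was 0.31.

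At 12 dpa only 41 cells with 537062 UMIs stood for the group, and a gene at 20 CPM rested on 10.7 UMIs. Of 7268 genes, 288 (3.96%) were over 2-fold higher and 1105 (15.2%) lower, with a median ratio of -0.23. Median of ratios scaling, which moved the centre by -0.16, gave 517 higher and 840 lower. In the other gated cells, far more deeply counted, 32 (0.453%) were higher and 226 (3.2%) lower. Only genes with many UMIs can be read at this depth, and the 12 dpa library also stood apart in sex-linked transcripts.

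The 3 highest ratios each came from 1 cell or nearly so. All 35 UMIs of Saa3 and all 49 of Sst lay in 1 cell each, as did 83.7% of the 92 UMIs of Ctla2a. Among genes carried by more cells, Crip1, a small LIM domain protein, was at 1586, 5902, 2351 and 3600 CPM (ratio 1.90, 1.84 to 1.95, against 0.85 in the other gated cells). Tnfrsf12a, the receptor for TWEAK, was at 44.7, 153, 81.9 and 69.7 CPM (1.75, 1.39 to 2.14) and the metalloprotease Mmp23 at 36.8, 128, 62.0 and 48.7 CPM. Ccl7 was at 220 CPM, with 39% of its UMIs in 1 cell. Aqp5, Aqp2, Gm26771, Bpgm and 8030451A03Rik were the others among the 12 highest.

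Some matricellular and matrix genes were highest at 12 dpa. Tnc (tenascin-C) was at 140, 389, 147 and 105 CPM, a ratio of 1.47 against -0.34 in the other gated cells. Thbs1 was at 102, 274, 114 and 128 CPM and the protease inhibitor Timp1 at 136, 344, 186 and 189 CPM. Mfap5, a microfibril protein, was at 608, 1614, 834 and 969 CPM. Tnc and Thbs1 were the 2 higher genes of 21 measured matricellular ones, and 2 were lower. Of all genes 3.96% were higher and 15.2% lower at 12 dpa.

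On the other side, Gm765, Esrrg and Grin2a had 0 UMIs at 12 dpa, against 180, 56.0 and 55.3 CPM in the unamputated library. Against the floor of 3 UMIs in that library (5.59 CPM) they were at least 32.1-fold, 10.0-fold and 9.90-fold lower. Nlgn1 had 1 UMI and Kctd16 had 2, from 120 and 131 CPM. Cemip, Cacna2d3, Lmo2, Pcdh9, Mme, Eya4 and Negr1 had ratios from -4.46 to -3.54. With 20 CPM in both libraries, 3 of 19 growth factor genes were lower, where 9.31% of all genes were, among them Ptn, at 85 UMIs, and 2 of 8 of the insulin-like growth factor list, with Igf1 at -1.94 (-2.13 to -1.77) against -0.98 in the other gated cells.

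Gdf10 belongs to the BMP and GDF ligands, whose pathway was followed by role. Of its ligands, Bmp5 was at 271, 48.4, 184 and 148 CPM and Bmp4 at 25.5, 24.2, 32.6 and 45.0 CPM. The receptor Bmpr1b was lower at every time after amputation, at 170, 57.7, 59.3 and 39.2 CPM, with ratios of -1.54, -1.5 and -2.09 against -0.04, -1.21 and -2.0 in the other gated cells. The receptor chains Bmpr1a (190, 145, 183 and 133 CPM) and Bmpr2 (200, 106, 198 and 177 CPM) were within 2-fold, while Acvr2a was lower at 12 dpa (139, 57.7, 91.3 and 90.3 CPM, ratio -1.25). Of the antagonists, Chrdl1 was higher at 12 and 17 dpa and Sostdc1 was at 8.82, 0, 3.13 and 35.1 CPM. The target Id3 was at 474, 242, 545 and 902 CPM and Id1 at 41.5, 33.5, 45.7 and 76.3 CPM, all within 2-fold of unamputated. The targets Id2 and Id4 were not: Id2 was at 93.9, 22.3, 103 and 122 CPM, lower at 12 dpa, and Id4 at 16.9, 20.5, 37.6 and 33.8 CPM, higher at 17 dpa. In all, 1 of 21, 2 of 21 and 2 of 24 measured genes were over 2-fold higher and 5, 1 and 1 lower at 12, 17 and 28 dpa. Of all genes 3.96%, 0.595% and 2.25% were higher and 15.2%, 2.42% and 5.38% lower.

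At 28 dpa 2.25% of all genes were higher and 5.38% lower. In the TGF-beta list 2 of 17 were higher at 28 dpa, among them Ltbp4, which anchors latent TGF-beta, at 377, 317, 841 and 813 CPM, and none lower. In the Wnt list 3 of 14 were higher and 3 lower, with the antagonist Wif1 at 25.2, 16.8, 22.7 and 101 CPM and the ligand Wnt5b at 85.3, 33.5, 31.5 and 30.9 CPM. Counts higher and lower at 28 dpa were 1 and 0 of 7 for retinoid genes, 1 and 1 of 11 for small proteoglycans and 2 and 2 of 21 for matricellular genes. They were 1 and 2 of 21 for proteases, 1 and 0 of 9 for contractile genes, 2 and 2 of 16 for clock genes and 1 and 0 of 18 for limb patterning genes. Of the cell cycle list 2 genes were measured and neither passed 2-fold, and in the parenchymal list 2 of 11 were higher and 1 lower. The lists were not tested.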

How the data were processed

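The files hold whole-number UMI counts per gene and cell barcode, as deposited by the authors; Cell Ranger 7.1.0 and the mm10 build are named in the submitters' processing notes, and the annotation and the setting of cell calling are not given in the sources used here. A barcode was kept if it had 500 or more genes, 1000 or more UMIs and no more than 10% of them mitochondrial. Doublets were marked with scrublet (scanpy 1.11.5), 12.8%, 7.05%, 8.41% and 12.2% of all barcodes by library in order of time, and were kept in the reported values and removed as an alternative. UMIs were summed over the selected cells of each library and scaled to CPM (Python 3.11.15, pandas 2.3.3, scipy 1.17.1). Ratios are log2 of CPM + 1, for genes that reached 20 CPM in whichever library was higher. Intervals are exact Poisson for levels, Clopper-Pearson for shares and conditional binomial for ratios, at 95%. UMIs of 1 library come from the same digestion and sort, so they are not replicates.

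Named genes were the 12 highest and 12 lowest ratios of at least 50 CPM per comparison, leaving out rule genes, markers of other cell classes, sex-linked and blood genes and genes more than 10 times higher in another class. The 20 leading marker genes and, from each of 24 gene lists, the members with the largest ratios or a role under discussion were added. The members and lists were chosen with earlier results of these data known. The code was tested on simulated data. Alternatives changed the barcode filter, doublets, depth, rule threshold, rule genes, cells entering, scaling, pseudocount and gene minimum.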

Additional observations from a re-analysis of the deposited data

Results flagged for a closer look

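Xist was at 186 CPM in the C4b/Gdf10 cells of the 12 dpa library and at 0, 0.165 and 0 CPM in those of the unamputated, 17 and 28 dpa libraries, which is a signal in transcripts outside the main measurement. Y-linked genes summed to 1.86 CPM in the 12 dpa cells against 332, 250 and 248 CPM in the others. By these transcripts 15 of the 12 dpa cells were female and 0 male, while 277, 333 and 150 cells of the other libraries were male and 0 female, although the labels give pooled sexes for every library.

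The gene 8030451A03Rik had a log2 ratio at 12 dpa of 2.27 in the C4b/Gdf10 cells and of -1.27 in the other gated cells, opposite in sign. The difference was not tested, and it rests on 1 cell: 81.8% of its UMIs at 12 dpa lay there, and without that cell the ratio was -0.068, of the same sign as in the other gated cells.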

How the results depend on the processing

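No paired analysis was possible because each group is 1 library. Male cells alone gave no value at 12 dpa, which had 0 of them. The alternatives without a condition on the other sums, with Gdf10-led cells only and without the cell holding most UMIs of a gene, and the minimum of 20 CPM in both groups, were chosen after seeing the data. Of 1054 list medians over the settings, 74 crossed 0, from 32 of 72 lists and comparisons, so medians near 0 give no direction; 5 of the 74 had been further from 0 than the counting error. Of the ratios of named genes, 946 stayed near it (mostly within the counting interval), 170 moved further and 12 changed direction. At 12 dpa the 41 cells are the limit on depth.

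The share of C4b/Gdf10 cells (unamputated, 12, 17 and 28 dpa) was 8.28%, 0.847%, 12.9% and 6.10% with cells thinned to 5000 UMIs and 11%, 1.17%, 13.9% and 5.93% with a sum of at least 5. It was 9.33%, 1.08%, 11.5% and 4.48% where the sum had to be 2 times each other sum, and 28.1%, 5.30%, 35.4% and 21.2% with no condition on the other sums. It was 3.34%, 0.0898%, 2.39% and 2.22% with Gdf10 left out and 2.55%, 0.591%, 5.58% and 2.62% of all kept cells. With C4b left out it was 11.3%, 15.0% and 5.20% in the unamputated, 17 and 28 dpa libraries, with Cyp2f2 left out 6.53% at 28 dpa, and with the stricter barcode filter 15.0% unamputated. The 12 dpa share was the lowest and the 17 dpa share the highest in each of these except with Gdf10 left out, where the unamputated share was the highest.

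Genes past 2-fold higher and lower were 1023 and 1876 at 12 dpa and 88 and 274 at 17 dpa, and 616 were lower at 28 dpa, with cells thinned. With Gdf10 left out they were 1873 and 2976, 158 and 502, and 293 and 752, where 12 dpa had 2 cells. A minimum of 50 CPM gave 176 and 586, 26 and 93, and 221 lower at 28 dpa, and one of 5 CPM 508 and 2091, 87 and 406, and 316 and 799, as fewer or more genes were tested. The 42 genes higher than in the other gated cells became 31 to 46, and 25 to 40 of the 42 remained, fewest with cells thinned. Median of ratios scaling gave 517 higher at 12 dpa and 254 higher and 235 lower at 28 dpa.

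At 12 dpa the ratio of Saa3 became -0.54 with doublets removed, -1.04 thinned, -0.71 with a sum of at least 5 and -0.63 without its top cell. Without the top cell Sst became -2.58 and 8030451A03Rik -0.068. With Gdf10 left out and 2 cells at 12 dpa, Saa3 became -1.34, Ctla2a -1.72, 8030451A03Rik -3.11, Aqp2 -3.55, Ccl7 -6.42 and Bpgm -2.48. At 17 dpa the median of the cell cycle list became 0.14 thinned, that of the insulin-like growth factor list 0.10 both with Gdf10 left out and with a mean of per-cell CPM, and that of the contractile list 0.040 with Gdf10 left out. Of the 72 ratios of named genes, 8 fell under 2-fold in at least 1 setting: beside Saa3 and 8030451A03Rik, at 17 dpa Zfp36 was 0.86 and Gsn 0.97 thinned, Gsn 0.74, Gas2 -0.96 and Cxcl5 -0.83 with Gdf10 left out and Myoc 0.84 with Gdf10-led cells only, and Sst at 12 dpa was 0 with Gdf10 left out. The parenchymal median at 28 dpa became 0.0094 with a mean of per-cell CPM. Apart from changes that follow from fewer cells or genes, the cause was not tested.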
